A study of Mnemiopsis leidyi with 31 samples.

Results

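The transcripts described here were present in Mnemiopsis leidyi embryos at 1 hour post fertilization (hpf) and kept a nearly constant share of the sequenced messenger RNA up to 9 hpf. They are 200 of the 31067 transcript records in the deposited count table. Mnemiopsis leidyi is a comb jelly, a ctenophore, and its embryos were sampled every hour from 1 to 9 hpf in 31 RNA-seq libraries. Wild-caught adults supplied the embryos, 100 to 200 whole embryos per stage, with no genetic change and no treatment in any group, and polyadenylated RNA was selected. All libraries carry a code that begins with 2012 or 2013. There were 12 libraries with codes of 2012, of which 10 were used as separate libraries: single ones for 2, 3, 7 and 9 hpf and pairs for 5, 6 and 8 hpf. Codes of 2013 marked 19 libraries: 3 for each of 2, 7 and 8 hpf, pairs for 1, 3, 4 and 6 hpf, and single ones for 5 and 9 hpf. The labels do not say what the code year stands for or which libraries came from 1 spawning.

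An animal egg is loaded with RNA made by the mother, and this store directs the first divisions before the embryo's own genome is widely transcribed. Many of these maternal transcripts are later removed, while others persist, and comb jelly embryos pass from cleavage to gastrulation and to the first organs of the larva within the hours sampled. A transcript that keeps its level may be an egg transcript that is neither made nor destroyed, or one whose loss is balanced by new transcription. Those cases cannot be told apart here, since the unfertilized egg was not among the libraries analysed and the origin of an RNA molecule was not measured. Selection on the poly(A) tail also means that a change in tail length cannot be told apart from a change in amount. In whole embryos, likewise, fewer cells using a transcript and less RNA per cell give the same reading.

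The 200 were chosen on the 19 libraries of 2013 alone, from the count divided by the library's total and multiplied by 1000000 (CPM). A record had to lie between 20 and 1000 CPM in both 1 hpf libraries of 2013, which 4697 records did. Its mean at 2 to 3, 4 to 5, 6 to 7 and 8 to 9 hpf each had to be 0.77 to 1.3 times its mean at 1 hpf, which left 651 records. From these the 200 with the lowest standard deviation (SD) of log2 CPM over the 19 libraries were taken. The course of the 200 in 2013 is therefore a description of how they were picked. Over these transcripts the median ratio to 1 hpf was 0.952 at 2 to 3 hpf, 1.02 at 4 to 5 hpf, 0.986 at 6 to 7 hpf and 0.987 at 8 to 9 hpf. Single ratios at 8 to 9 hpf ran from 0.776 to 1.29. The last transcript taken, Mle_000188, had an SD of 0.3018 and the next record, Mle_004026, one of 0.3019, so the border of the set is not a gap in the data. The libraries of 2012 played no part in the choice, and what follows turns on them.

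The records carry identifiers and lengths but no gene names, and 0 of 31067 identifiers matched the only reference table at hand, that of assembly crg_Mlei_v2, which numbers its genes differently. The functions of the 200 transcripts are therefore not given, no list of genes could be applied and no sequence is shown. Total counts ran from 36985654 to 80243917 in the 10 libraries of 2012 and from 17608264 to 66728425 in the 19 of 2013. The libraries had no molecular identifiers, so counting precision applies to reads and not to molecules. Every one of the 200 transcripts had at least 372 counts in every library. Whether depth limited their values was not tested. The record with the most counts over the series, which is not among the 200, took from 0.513% to 8.66% of its counts and moves all CPM values of that library.

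The overlap of columns and the order of the codes bear on the results. The column 1 hpf 2012_N7 held at least the count of 9 hpf 2012_37 in every record, and 4 hpf 2012_N4 did so for 5 hpf 2012_14, with 0 exceptions of 31067 in either. The smaller column made up 83.7% of the total of 1 hpf 2012_N7 and 68.8% of that of 4 hpf 2012_N4. Both larger columns were left out of the tests, so that 1 and 4 hpf have no library of 2012. A pair of further libraries went against their labelled hour, as judged by the records of similar starting level that fell below the fold band by 8 to 9 hpf in 2013 (2017 records) or rose above it (704 records). In the library labelled 2 hpf 2012_N6, the falling records stood at a median of -0.47 and the rising ones at 0.32 on the log2 scale relative to the 1 hpf mean of 2013. In the library labelled 7 hpf 2012_N1, both stood at -0.23. The 7 hpf libraries of 2013 had -1.15 to -0.69 for the falling and 0.49 to 0.55 for the rising records. The codes 2012_N1 to 2012_N7 run from 7 hpf down to 1 hpf, opposite to the labelled hours. Of the others among them, 5 hpf 2012_N3 had its rising records at -0.25, against 0.28 in 5 hpf 2013_25. The falling records were shorter than the rising ones, with median lengths of 2139 and 3090 bases. In 7 hpf 2012_N1 and 5 hpf 2012_N3 levels of records not among the 200 fell with log2 length, with Pearson's r of -0.53 and -0.41. The part of length in the standing of these libraries was not tested. The labelled hours were kept, and each slope, bin and fold-band value of 2012 rests on them. One library of 2013, 2 hpf 2013_42, also lay apart, with -0.92 and -0.23, and it was among those that chose the 200. The main results on the libraries of 2012 are therefore also given without 2012_N6 and 2012_N1.

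Together the 200 transcripts held 2.93% to 4.09% of all counts in the 10 libraries of 2012 (3.36% ± 0.404, SD, n = 10) and 3.07% to 3.74% in the 19 libraries of 2013 (3.45% ± 0.188, SD, n = 19). The library with the largest share was 6 hpf 2012_23 at 4.09%, and the one with the smallest was 7 hpf 2012_N1 at 2.93%. At 8 hpf the libraries of 2012 held 3.32% and 3.07%, against 3.48% to 3.63% in the 3 libraries of 2013. The single libraries at 9 hpf held 3.64% in 2012 and 3.07% in 2013. The 200 were chosen for steady levels in 2013, so the narrow range of their share in that year is partly set by that choice. Hours with no used library of 2012 could not be compared between the years.

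**Figure D1:**
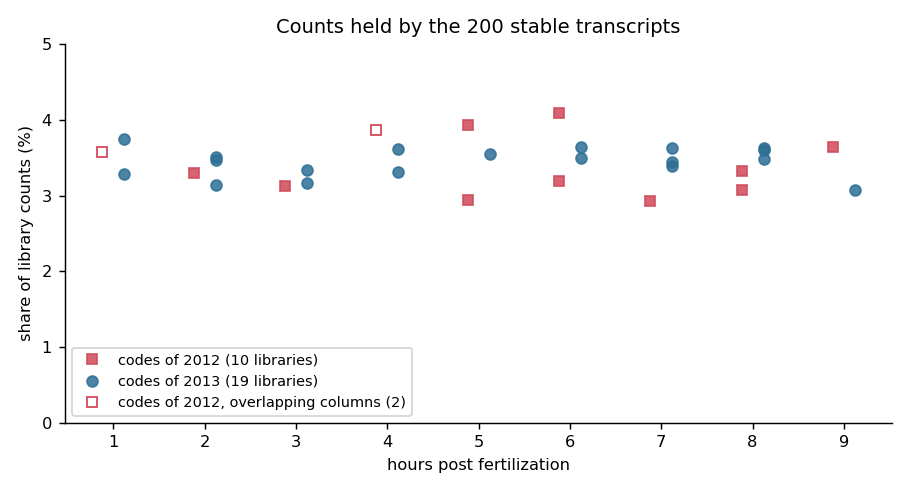
Share of all counts of a library (%, vertical axis) held by the 200 stable transcripts against hours post fertilization. Filled squares are the 10 libraries of 2012 used, circles the 19 libraries of 2013 that chose the transcripts, and open squares the 2 columns of 2012 that contain another column. All libraries lie between 2.93% and 4.09%.

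In the libraries of 2012, the 200 transcripts again varied less than other records of the same starting level. The SD of log2 CPM over the 10 libraries had a median of 0.282 over the 200 (quartiles 0.206 and 0.369). The 4497 other records of 20 to 1000 CPM at 1 hpf had a median of 0.422 (quartiles 0.313 and 0.583). Of the 200, 118 (59%) lay below the lower quartile of the others, 175 below their median and 4 above their upper quartile. The 451 records that met the fold band but had a larger SD in 2013 came between, with a median of 0.349, and the 4046 outside the band had 0.430. The 200 were also compared with all 4497 others at each level of abundance. Among records of 20 to 50 CPM the median SD was 0.274 for 26 of the 200 and 0.444 for 1160 others. At 50 to 100 CPM it was 0.284 for 53 and 0.419 for 1364 others, and at 100 to 200 CPM 0.263 for 63 and 0.406 for 1056 others. The most abundant, at 200 to 1000 CPM, had 0.312 for 58 and 0.418 for 917 others. Without 2 hpf 2012_N6 and 7 hpf 2012_N1 the median SD was 0.278 for the 200 and 0.423 for the others. The lower spread of the 200 therefore appeared at every level, in libraries that were not used to choose the transcripts.

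**Figure D2:**
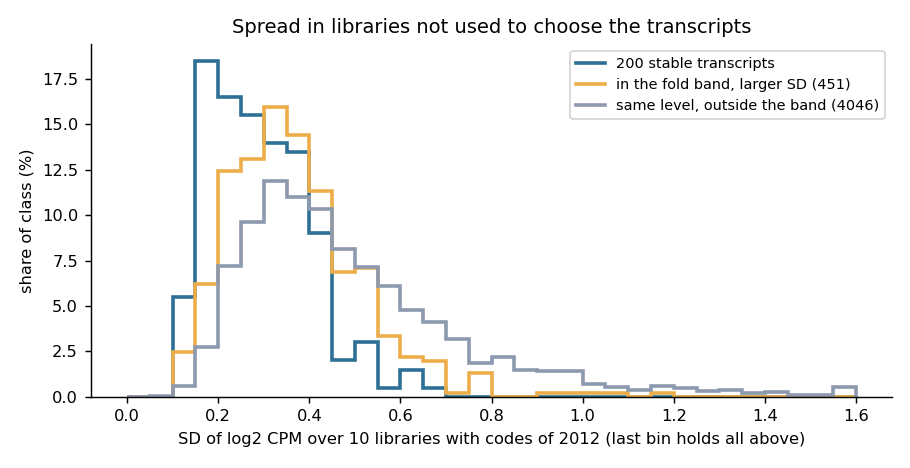
Distribution of the SD of log2 CPM over the 10 libraries of 2012 (horizontal axis) as a share of each class (%, vertical axis). The 200 stable transcripts have a median of 0.282, the 451 records in the fold band with a larger SD in 2013 have 0.349, and the 4046 records of the same level outside the band have 0.430.

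Read as fold ranges, the highest CPM of a transcript over the 10 libraries of 2012 was a median of 1.87 times its lowest over the 200, with extremes of 1.28 and 5.00. The other records of similar level had a median of 2.51. In 125 of the 200 transcripts the range stayed under 2-fold, against 1195 (26.6%) of the other records. Over the 19 libraries of 2013 the median range of the 200 was 1.89, and 133 of them stayed under 2-fold. Over all 31 libraries, overlapping columns included, 58 of the 200 stayed under 2-fold. Steady thus means a range of about 2-fold between libraries, replicate differences included. Across the 200 transcripts, which share the libraries, Spearman's rho of the SDs in 2013 and 2012 was 0.147. The rule kept only SDs in 2013 up to 0.3018, and this narrow range limits rho, so it cannot tell how far steadiness carried over. Over the classes, the median SD in 2012 was 0.282 for the 200, 0.349 for the rest of the fold band and 0.430 outside it.

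Part of this spread was present between libraries of the same hour. In the 13 pairs of 2013 libraries with the same hour, the median absolute log2 difference of the 200 transcripts was 0.205 to 0.295, against 0.268 to 1.02 for the other records of similar level. For the 200 this is a range that the choice itself kept low, since it used these libraries.

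The fold band could be asked of the libraries of 2012 with 2 to 3 hpf as the base, since 1 hpf has none. Of the 200 transcripts, 139 (69.5%) had means at 5, 6 to 7 and 8 to 9 hpf that were each 0.77 to 1.3 times the mean at 2 to 3 hpf. The shares were 54.5% of the 451 records that met the band in 2013 with a larger SD, 30.8% of the 4046 outside it, and 33.2% of all 4497 others. At 5 hpf, 176 of the 200 were inside, 24 were above and 0 were below. At 6 to 7 hpf, 175 were inside, 19 above and 6 below, and at 8 to 9 hpf 170 were inside, 26 above and 4 below. The median ratios were 1.06, 1.04 and 1.04. Without 2 hpf 2012_N6 and 7 hpf 2012_N1 the base was 3 hpf 2012_N5 alone. In that setting 106 of the 200 (53%) and 20.5% of the others were inside the band in all bins. Departures of the 200 were thus mostly upwards in CPM. The share of the other records inside the band declined with the hour, 79.6% at 5 hpf, 65.2% at 6 to 7 hpf and 50.2% at 8 to 9 hpf, whereas that of the 200 was 88%, 87.5% and 85%.

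Between 2 to 3 hpf and 8 to 9 hpf in 2012 the log2 change of the 200 transcripts had a median of 0.06 (quartiles -0.10 and 0.24). The 2017 records that fell in 2013 had a median change of -0.44 (quartiles -0.73 and -0.15), and the 704 that rose in 2013 one of 0.47 (quartiles 0.19 and 0.71). With all 10 libraries the quartiles of the 200 stood clear of those of the falling records and overlapped those of the rising records between 0.19 and 0.24. They overlapped those of the falling records as well without 3 hpf 2012_N5, where the lower quartile of the 200 was -0.16 and the upper quartile of the falling records -0.01. The medians without this library were 0.02 for the 200, -0.24 for the falling and 0.23 for the rising records. Without 8 hpf 2012_N8B the overlap was from -0.09 to -0.08. Without the libraries labelled 2 hpf 2012_N6 and 7 hpf 2012_N1 the medians were 0.12 for the 200, -0.59 for the falling and 0.77 for the rising records. The base was then 3 hpf 2012_N5 alone, and 7 hpf 2012_N1 does not enter this change. These libraries were picked by the falling and rising records, so the wider gap between those classes is partly set by that choice. Leaving out any 1 of the 10 libraries kept the median of the 200 between -0.00395 and 0.121. Only the libraries of 2, 3, 8 and 9 hpf enter this change, so leaving out any other could not move it. Of the 200, 119 were higher at 8 to 9 than at 2 to 3 hpf in 2012 and 114 were in 2013, with the same sign in both years in 125. Across the 200 transcripts, which are not independent of each other within a library, Pearson's r of the changes in the 2 years was 0.241. The rule bounded the changes in 2013, and this limits r within the 200.

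**Figure D3:**
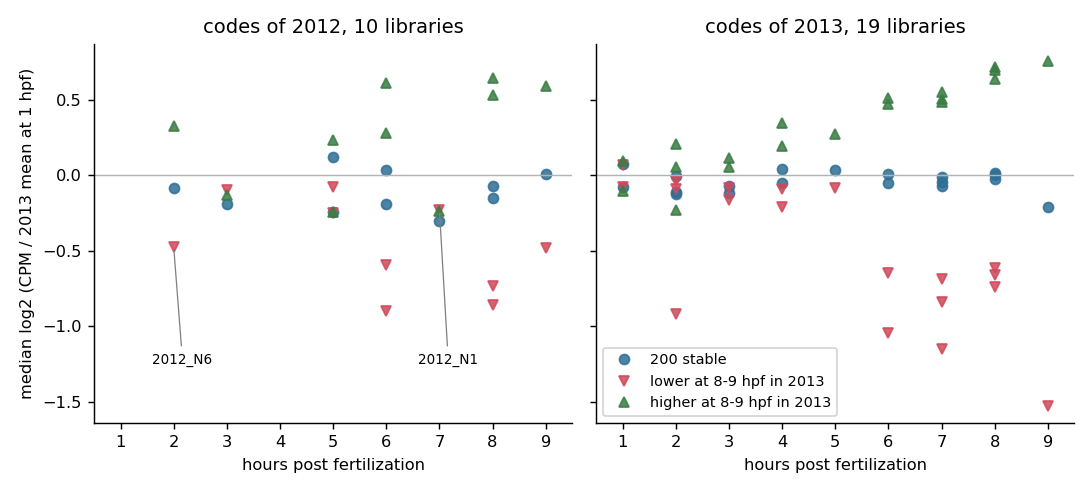
Median log2 ratio of CPM to the 1 hpf mean of 2013 (vertical axis) against hours post fertilization, with the 10 libraries of 2012 in the left panel and the 19 of 2013 in the right. Circles are the 200 stable transcripts, downward triangles the 2017 records below the fold band at 8 to 9 hpf in 2013 and upward triangles the 704 above it. The 200 lie between -0.30 and 0.12 in every library shown, and lines mark the 2 libraries of 2012 that stand against their labelled hour.

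This constancy is one of shares of counts and depends on the scaling. TMM and RLE factors, which scale libraries to the bulk of the records instead of to the total, were far from 1. TMM factors ran from 0.713 to 1.42 in the libraries of 2012 and from 0.512 to 1.57 in those of 2013. RLE factors ran from 0.799 to 1.26 in 2012 and from 0.534 to 1.296 in 2013. With TMM factors the median ratio of the 200 to 1 hpf in 2013 was 0.722 at 4 to 5 hpf and 0.611 at 8 to 9 hpf, and 11 of the 200 stayed within the fold band. With RLE factors the median was 0.840 at 4 to 5 hpf and 1.00 at 8 to 9 hpf, and 81 of the 200 stayed. In the bin between these hours the median was 0.795 with TMM factors and 1.19 with RLE factors. In the libraries of 2012 the median change from 2 to 3 to 8 to 9 hpf was -0.24 with TMM and -0.19 with RLE, against 0.06 by library totals. The falling records moved with them to -0.78 and -0.73 and the rising ones to 0.23 and 0.27. A factor scales all records of a library alike, so the order of the classes could hardly change between scalings. The SD over the 10 libraries of 2012 had a median of 0.469 for the 200 and 0.600 for the other records of similar level with TMM, and 0.404 and 0.538 with RLE, so the smaller spread of the 200 was present under each scaling. The fold band held 12.5% of the 200 and 7.20% of the others in 2012 with TMM, and 25% and 11.2% with RLE. No spiked standard is described in the labels, and which scaling follows the amount of RNA per embryo cannot be told apart.

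Whether any of the 200 changed with time in the libraries of 2012 was tested with edgeR's quasi-likelihood test on all 24246 records that passed the filter on low counts, with TMM factors and Benjamini-Hochberg adjustment. All 200 passed the filter. For a slope over the hours 0 of the 200 passed an adjusted p of 0.05, and over all records tested the share was 0%. At an unadjusted p under 0.05 there were 0 of the 200 and 162 of all records (0.668%) with all 10 libraries. DESeq2 and limma also called 0 records, with 437 and 479 at an unadjusted p under 0.05 and none of the 200 among them. The smallest p over the 200 was 0.0743, for Mle_000723. Differences between the bins 2 to 3, 5, 6 to 7 and 8 to 9 hpf were called by edgeR in 0 of the 200, and over all records in 0%. At an unadjusted p under 0.05 there were 1 of the 200, Mle_003066, and 1505 of all records. DESeq2 called 304 records for the bins (1.25%) and limma 10 (0.0412%), with 0 of the 200 in either. Since edgeR called no record at all with these 10 libraries, the count of 0 among the 200 does not set them apart there.

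These tests changed without the libraries that stand against their labelled hour. Without 2 hpf 2012_N6 the bin of 2 to 3 hpf was 3 hpf 2012_N5 alone, and the calls for the bins rest on it. The libraries were picked by how the falling and rising records stood in them, so the gain in calls is not independent of that choice. Without 2 hpf 2012_N6 and 7 hpf 2012_N1, edgeR called 3721 of 25952 records for the bins, 14.3%, which is a share of records of every level, and 0 of the 200. At an unadjusted p under 0.05 there were then 18 of the 200 (9%) and 11699 of all records (45.1%) for the bins. For the slope edgeR still called 0 records, with 39 of the 200 (19.5%) and 8403 of all records (32.4%) at an unadjusted p under 0.05. The median slope of the 200 with TMM factors was then -0.12 per hour on the log2 scale and that of all records 0.28. Leaving out 2 hpf 2012_N6 alone gave 134 calls for the bins (0.518%), 0 of them among the 200. For the slope, 15 of the 200 and 6573 of all records were then at an unadjusted p under 0.05, with 0 called. Without 3 hpf 2012_N5 edgeR called 5 records for the bins, again 0 of the 200. Other counts over all records at an unadjusted p under 0.05 ranged from 38 to 659 for the slope when 1 library other than 2012_N6 was left out.

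The intervals of the slopes say more about what these 10 libraries can show. With library totals the median slope of the 200 was 0.00147 per hour on the log2 scale, with 102 positive and 98 negative, and over all records tested it was 0.05. With TMM factors it was -0.05, with 22 positive and 178 negative, and over all records 0.02. The other records of similar level leaned the same way with TMM factors, with a median of -0.08, 694 positive and 3803 negative. A doubling or a halving over the time from 2 to 9 hpf lay outside the 95% interval for 111 of the 200 (55.5%) with library totals, against 18.5% of the other records of similar level. With TMM factors this held for 8 of the 200 (4.0%), against 2.49% of the others. The number with TMM factors hung on single libraries: it was 0 without 3 hpf 2012_N5 or without 5 hpf 2012_N3, and 17 without 6 hpf 2012_23. A change of 2-fold was thus within the error for most of the 200 under TMM scaling. The median biological coefficient of variation was 0.402 for the 200, 0.463 for the other records of similar level and 1.01 for all records tested.

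Levels in 2012 were close to those in 2013. The log2 ratio of the mean CPM in 2012 to that in 2013 had a median of -0.05 over the 200 (quartiles -0.19 and 0.08). The means were within 1.3-fold of each other in 185 transcripts, within 1.5-fold in all but 1 and within 2-fold in all 200. Of the other records of similar level, 80.6%, 93.9% and 99.4% were within these limits. The bound on the level at 1 hpf in 2013 applied to the other records as well, whereas only the 200 were also chosen by a low SD in 2013. The part of this choice in the closeness was not tested.

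A test of 2012 over 2013 with the hour as a factor used 29 libraries and 22884 records in edgeR. It called 1 of the 200 (0.5%), against 2.24% of all records, and the 1 call was in the direction lower in 2012, which 0.122% of all records were. At an unadjusted p under 0.05 there were 22 of the 200 (11%), 15.3% of the other records of similar level and 17.9% of all. The 19 libraries of 2013 in this test also chose the 200 by their low SD. The p-values and shares called of the 200 are therefore partly set by that choice. The called transcript was Mle_012142 (3589 bases), with a lowest, median and highest value of 55.1, 71.8 and 98.3 CPM in the libraries of 2012, against 76.3, 108 and 158 CPM in those of 2013. Its mean was 75.7 ± 14.8 CPM (SD, n = 10) in 2012 and 112 ± 20.6 CPM (SD, n = 19) in 2013. The groups overlapped between 76.3 and 98.3 CPM. The log2 fold change of Mle_012142 was -0.57 with a standard error of 0.147 and an adjusted p of 0.0379 in edgeR's quasi-likelihood test.

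This call was not firm. DESeq2 called 13 of the 200 (6.5%), against 7.72% of all records, and limma 6 (3%), against 3.15%. It was lost in 18 of the 37 alternatives, with adjusted p-values from 0.00209 to 0.322 over all of them and the fold change negative in each. Leaving out 2012_N6, N5, 14, N3, N2, N1 or N8B ended it, as did leaving out 2013_22, 32, 23, 33, 25, 26, 46, 27 or 28. The highest adjusted p of Mle_012142 when 1 library was left out was 0.116, without 2 hpf 2012_N6. In the other direction, the smallest p was that of Mle_023551 (2398 bases), which had 464 ± 91.4 CPM in 2012 (SD, n = 10) and 321 ± 65.1 CPM in 2013 (SD, n = 19). Its log2 fold change was 0.48 with a standard error of 0.163 and an adjusted p of 0.116 in edgeR. Limma on log2(RPKM + 1) and edgeR after the overlapping columns were subtracted gave adjusted p-values of 0.0378 and 0.0290 for it.

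Of the single transcripts, the one with the lowest SD in 2013, Mle_011255 (1934 bases), had 296, 324 and 455 CPM as its lowest, median and highest value in the libraries of 2012, against 296, 340 and 443 CPM in those of 2013. Its highest values were in 6 hpf 2012_N2 and 8 hpf 2013_48, and the years overlapped over nearly their whole range. The means were 340 ± 45.6 CPM in 2012 (SD, n = 10) and 349 ± 36.5 CPM in 2013 (SD, n = 19). Mle_012258 (1983 bases), the next by this measure, had 78.0, 88.2 and 120 CPM in 2012, against 83.7, 100.2 and 116 CPM in 2013. Both are under 2000 bases, as are 30 of the 200.

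Mle_016053 (4118 bases) was the most abundant of the 200, with 559, 748 and 1043 CPM in 2012, against 636, 840 and 1150 CPM in 2013. Its lowest libraries were 8 hpf 2012_N8B and 9 hpf 2013_49, while another 8 hpf library, 2013_28, was its highest. Late hours thus held both ends of its range. Mle_030531 (3556 bases) followed with 482, 660 and 849 CPM in 2012, against 501, 724 and 910 CPM in 2013. Per length these were 206 and 203 RPKM (CPM divided by the length in kilobases) on average in 2013.

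The scarcest of the 200 was Mle_012890 (3304 bases), with 17.1, 21.7 and 26.2 CPM in 2012, against 14.3, 22.2 and 27.9 CPM in 2013. Its mean of 21.5 ± 3.49 CPM in 2012 (SD, n = 10) differed from that in 2013, 21.4 ± 4.19 CPM (SD, n = 19), by far less than the spread. Mle_029996 (2669 bases) had 15.1, 23.2 and 65.2 CPM in 2012, against 15.5, 23.5 and 28.8 CPM in 2013. The 65.2 CPM came from 6 hpf 2012_N2 alone, and every other library of 2012 used was between 15.1 and 28.8 CPM. Mean levels of the 200 thus spanned from 21.4 to 846 CPM in 2013.

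**Figure D4:**
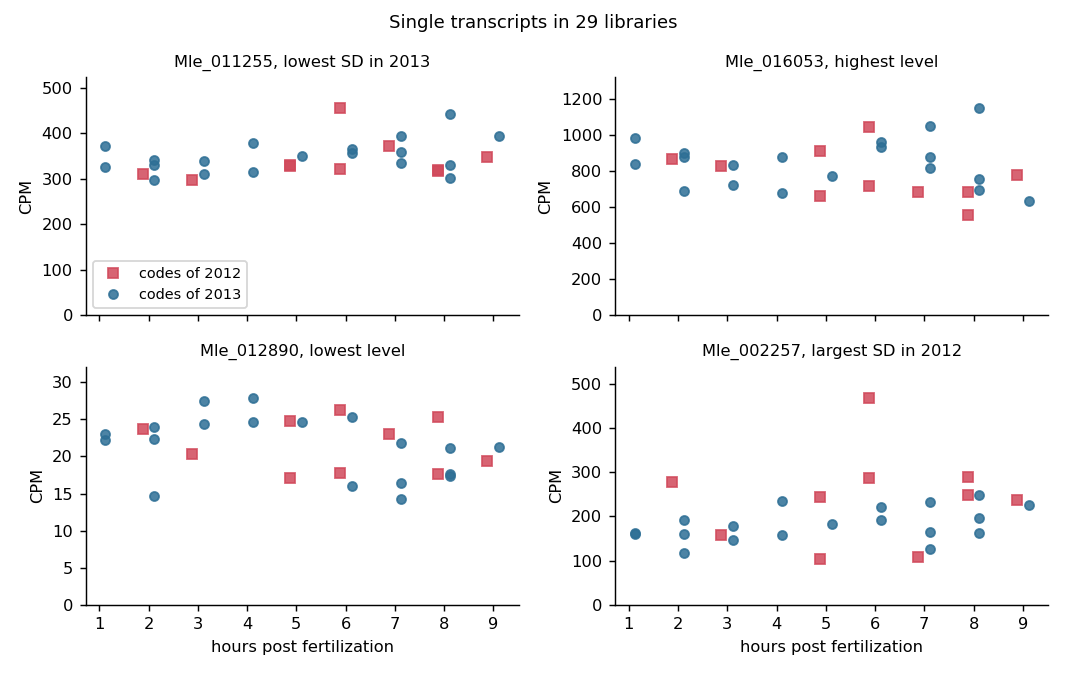
CPM (vertical axes, each from 0) of 4 of the stable transcripts against hours post fertilization in 29 libraries, with squares for the 10 libraries of 2012 and circles for the 19 of 2013. Mle_011255 lies between 296 and 455 CPM, Mle_016053 between 559 and 1150 CPM and Mle_012890 between 14.3 and 27.9 CPM, while Mle_002257 lies between 104 and 469 CPM with both extremes in 2012.

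In the libraries of 2012 alone the steadiest were Mle_003795 (2526 bases), with 84.7, 95.5 and 115 CPM, and Mle_024933 (2733 bases), with 42.5, 47.5 and 54.9 CPM. The SDs of log2 CPM were 0.114 and 0.1196. In 2013 the same transcripts had wider ranges, 84.2 to 128 CPM for Mle_003795 and 35.0 to 61.0 CPM for Mle_024933. The most variable in 2012 was Mle_002257 (10564 bases), with an SD of 0.677 and 104, 247 and 469 CPM, against 117, 177 and 249 CPM in 2013. It was lowest in 5 hpf 2012_N3 and 7 hpf 2012_N1 and highest in 6 hpf 2012_N2. Mle_023876 (4185 bases) had an SD of 0.632 and 36.98, 64.3 and 185 CPM in 2012, against 41.4, 69.5 and 96.3 CPM in 2013, with its 185 CPM in 6 hpf 2012_23.

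Of the transcripts with the smallest p-values over the hours, none passed the adjusted threshold. Mle_009127 (2233 bases), first among the 200 with a positive slope, had 33.5, 49.99 and 65.6 CPM in 2012, and its slope of 0.05 per hour on the log2 scale had an unadjusted p of 0.400 in edgeR. Mle_000723 (5468 bases), first with a negative slope, had 50.6, 65.6 and 81.5 CPM in 2012 and a slope of -0.10 with an adjusted p of 1.00 in edgeR. Of the bin test, Mle_003066 (2771 bases) had 385 CPM at 3 hpf and 307 CPM at 2 hpf in 2012, and 232, 232 and 298 CPM in the libraries of 8 and 9 hpf. Its adjusted p in edgeR was 0.540. Mle_000601 (3504 bases), the counterpart higher at 8 to 9 than at 2 to 3 hpf, had 81.5 and 91.0 CPM at 3 and 2 hpf and 115 to 139 CPM at 8 to 9 hpf, with the same adjusted p of 0.540.

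The 200 were longer than most classes of records of similar level, although the rule did not use length, and ran from 971 to 12205 bases. Their median length was 3259 bases (quartiles 2396 and 4219), against 2417 bases for the other 4497 records of similar level, 2594 bases for the 451 in the fold band with a larger SD and 1078 bases for all records. The 704 records that rose in 2013 were of nearly the same length as the 200, with a median of 3090 bases (quartiles 2118 and 4237). The share of records of suitable level that were among the 200 was 0.733% under 1000 bases (2 of 273) and 2.03% from 1000 to 2000 bases (28 of 1382). It was 5.24% from 2000 to 4000 bases (115 of 2195) and 6.49% at 4000 bases or more (55 of 847). In CPM the 200 had a median of 120 at 1 hpf, above the 86.2 of the others. Per length the medians were nearly the same, 37.2 RPKM for the 200 and 36.5 RPKM for the others, computed with the total of each library. Long records collect more reads at the same amount of RNA, and whether this is why they are frequent among the 200 was not tested.

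In some libraries the departures of the 200 from their 2013 mean moved with length, most in 7 hpf 2012_N1 and 6 hpf 2012_23. In 7 hpf 2012_N1 the median log2 ratio to the 2013 mean was 0.06 for the 30 transcripts under 2000 bases, -0.26 for the 115 of 2000 to under 4000 bases and -0.53 for the 55 of 4000 bases or more. In 6 hpf 2012_23 the order was the opposite, with -0.32, 0.05 and 0.29. The difference of long minus short was -0.59 in the first of these and 0.61 in the second, the extremes of the 10 libraries of 2012. In the 19 libraries of 2013 it ran from -0.28 in 3 hpf 2013_33 to 0.20 in 7 hpf 2013_27. The other records of similar level showed the same sign with larger sizes in both libraries of 2012, at -1.03 and 0.81. Pearson's r between log2 length and the departure, across the 200 transcripts of a single library, was -0.40 in 7 hpf 2012_N1 and 0.40 in 6 hpf 2012_23. It was 0.38 in 9 hpf 2012_37, 0.26 in 8 hpf 2012_18, 0.25 in 5 hpf 2012_14 and 0.18 in 8 hpf 2012_N8B, and -0.24 in 5 hpf 2012_N3. It was near 0 in the rest, with 0.02 in 2 hpf 2012_N6, -0.04 in 3 hpf 2012_N5 and 0.08 in 6 hpf 2012_N2. Over the 19 libraries of 2013 its median was 0.00379. The longest of the 200, Mle_020160 (12205 bases), had 165 CPM in 7 hpf 2012_N1 and 595 CPM in 5 hpf 2012_14, against 288 to 475 CPM in 2013. The shortest, Mle_027616 (971 bases), had 35.8 to 65.7 CPM in 2012 and 30.7 to 57.6 CPM in 2013.

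**Figure D5:**
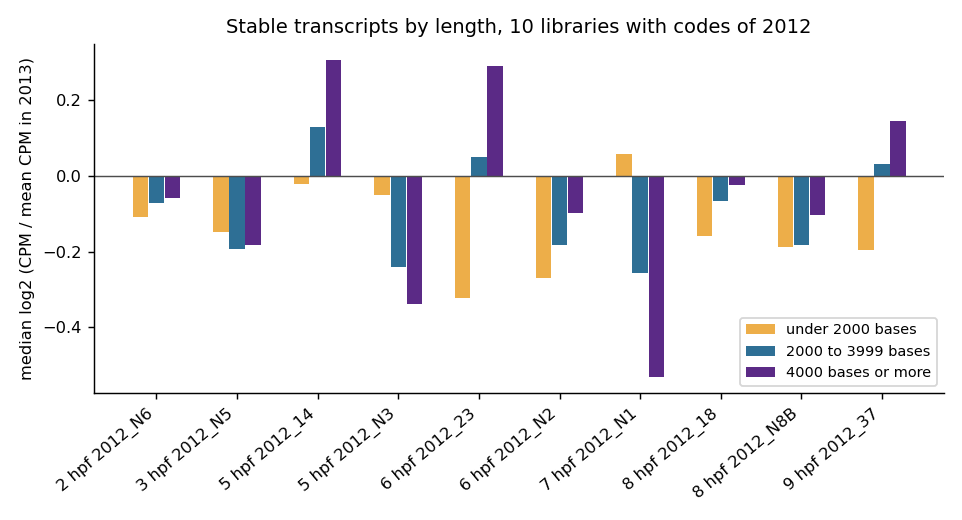
Median log2 ratio of CPM to the 2013 mean (vertical axis) in each of the 10 libraries of 2012, for the stable transcripts under 2000 bases (30), of 2000 to under 4000 bases (115) and of 4000 bases or more (55). Bars start at 0, and long transcripts are lowest in 7 hpf 2012_N1, at -0.53, and highest in 5 hpf 2012_14, at 0.31.

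Spread in 2012 also differed by length among the 200, with a median SD of 0.217 from 1000 to 2000 bases, 0.275 from 2000 to 4000 bases and 0.347 at 4000 bases or more. Only 2 of the 200 are under 1000 bases, and their median SD was 0.412. The other records of similar level had 0.734 under 1000 bases, 0.459 from 1000 to 2000 bases, 0.386 from 2000 to 4000 bases and 0.423 at 4000 bases or more. Both transcripts with the largest SD in 2012 are over 4000 bases, and those with the lowest SD in 2012 are of 2526 and 2733 bases. In those libraries part of the spread of the 200 moved with length, and its part in the results over the hours was not tested.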

How the data were processed

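The deposited read counts of 31067 transcript records in 31 libraries were used. Bowtie2 and SAMtools are named per the submitters' processing notes, whereas their versions, the reference and the counting are not given in the sources used, so that records sharing near-identical sequence have uncertain counts. Strand use in counting is not given either. The authors' RPKM table carries 1 common total for all libraries and was not used. Members and lists were chosen with earlier results of these data known. Named transcripts were those with extreme SD, level, length or p, by a fixed rule. CPM used library totals. Tests were run in edgeR 4.0.16 (R 4.3.3) with quasi-likelihood fits, filterByExpr, TMM factors and Benjamini-Hochberg adjustment over all records at 0.05. The slope and the bins used 10 libraries of 2012, and the year comparison 29 libraries with the hour as a factor. DESeq2 1.42.0 and limma 3.58.1 on log2(RPKM + 1), from the counts, were alternatives, as were other scalings, no filter, the overlapping columns kept or subtracted, and each library left out. The code was tested on simulated data. Standard errors (SE) are the absolute log2 fold change over the square root of F, and 95% intervals of slopes follow from them. The labels do not tell which libraries share a spawning, so p-values cover the spread among these libraries only.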

Additional observations from a re-analysis of the deposited data

Results flagged for a closer look

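For the named transcripts, 80 groups of libraries of 1 hour were looked at for a library far from the others, and chance gives such a library in about 1 in 20 groups. There were 6. Mle_029996 had 65.2 CPM in 6 hpf 2012_N2, against 15.5 to 18.8 CPM in the other 6 hpf libraries. Mle_020160, the longest of the 200, had 287 CPM in 2 hpf 2012_N6, against 391 to 407 CPM at the same hour, and this library also stood against its labelled hour. In libraries of 2013, Mle_011255 had 443 CPM in 8 hpf 2013_48 (others 301 to 331) and Mle_009127 had 40.7 CPM in 8 hpf 2013_18 (others 63.9 to 66.1). Mle_016053 had 692 CPM in 2 hpf 2013_22 (others 868 to 901). Mle_003066 had 464 CPM in 2 hpf 2013_42 (others 303 to 317), a library in which other records of similar level also lay apart.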

How the results depend on the processing

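Among the 200, the counts of 0 called for the slope and for the hour bins were the same in all 19 alternatives of each. Over all records the slope had 0 calls in each alternative, while the bins had 3721 without 2 hpf 2012_N6 and 7 hpf 2012_N1, 134 without 2 hpf 2012_N6, 5 without 3 hpf 2012_N5, 304 with DESeq2, 10 with limma, 5 with no filter, 4 after subtraction of the overlapping columns, and 0 in the others. These included the code series as a block, taken as codes with or without the letter N (0 called, with 2 and 3 of the 200 at an unadjusted p under 0.05). Both libraries of 2 to 3 hpf have the N, so this block is partly tied to the hour. The labels tie the codes to no spawning. The 1 call of 2012 over 2013 became 2 with library totals, 0 with no filter, 13 with DESeq2, 6 with limma, 4 with the overlapping columns as deposited, 4 after subtraction, 0 without 2 hpf 2012_N6 and 7 hpf 2012_N1, and 0 to 2 when 1 library was left out. Over all records the 513 calls became 438, 583, 1767, 721, 1411, 1221 and 100 in the same settings, in that order. The 651 records that met level and band were 238 with TMM factors, 1680 with a band of 0.67 to 1.5 and 258 with 0.83 to 1.2, and 461 to 745 when 1 library was left out. The 139 of the 200 within the band in 2012 were 25 with TMM and 50 with RLE factors, and 95 to 140 when 1 library was left out. The median SD of 0.282 was 0.469 with TMM and 0.404 with RLE, and 0.250 to 0.292 when 1 library was left out. The slopes that exclude a doubling or halving numbered 0 to 121 over the settings. The median share of counts, 3.47%, was 3.53% without the most counted record. The cause of these shifts was not tested. The alternatives for the median change and the slope intervals were chosen after seeing the data.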
